A study of Mus musculus with 4 samples.

Results

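The 10 genes described here, Rcvrn, Guca1a, Guca1b, Gucy2e, Gucy2f, Grk1, Rgs9, Rgs9bp, Gnb5 and Slc24a1, encode proteins that shut off the light response of rods and cones and reset it. They were chosen by name for these roles, out of 21828 genes in each table, and all 10 carried a usable FPKM (fragments per kilobase of transcript per 1e6 reads) in all 4 libraries. The libraries were made from mouse retina, strain label FVB/N, of animals that carried a transgene in which a 2.5-kb stretch of the Hes1 promoter drives a destabilized EGFP. Retinal cells were sorted into EGFP-positive cells (pHes1_EPCs) and EGFP-negative cells (pHes1_ENCs) at postnatal day 1 (P1) and postnatal day 4 (P4), with no further treatment and with 1 library for each fraction at each age. The fractions therefore follow the activity of a transgenic promoter fragment and not a cell type as such, and the labels do not say how many animals were pooled for a library. There were no replicates, so every difference below describes these libraries and was not tested.

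In the light, an activated opsin switches on transducin, which switches on a phosphodiesterase that removes cyclic GMP and closes the channels of the outer segment. Recovery needs each of these steps to be reversed. The opsin kinase phosphorylates the opsin, a complex of Rgs9, Gnb5 and Rgs9bp speeds up the GTPase of transducin, and guanylate cyclases make cyclic GMP again. Calcium ties these steps together: it enters through the open channels and leaves through an exchanger, so it falls in the light, and calcium-binding proteins then release the kinase and activate the cyclases. Rods form in the mouse retina largely after birth, while Hes1 marks progenitors and Müller glia.

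The genes lie at separate places in the genome except for the GCAP pair (build NCBI37/mm9, GENCODE annotation). Guca1b (chr17:47522342-47529916, plus strand) and Guca1a (chr17:47531507-47537533, minus strand) face each other with their 3′ ends, 1590 bases apart. Rcvrn is at chr11:67508828-67516857, Gucy2e at chr11:69031619-69050524, Rgs9 at chr11:109086669-109159495, Gucy2f at chrX:138513832-138631479, Grk1 at chr8:13405081-13421949, Rgs9bp at chr7:36364013-36370601, Gnb5 at chr9:75159202-75193478 and Slc24a1 at chr9:64770668-64799414. Rgs9bp has 1 exon, and the longest coding transcripts of the others have 3 (Rcvrn) to 20 (Gucy2f) exons. No other line of the deposited tables overlapped any of the 10 genes.

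The 250 bases upstream of the start were available from RefSeq (GRCm38.p6) for 7 of the 10 genes, namely Guca1a, Gucy2e, Gucy2f, Grk1, Rgs9, Gnb5 and Slc24a1, and each window matched mm9 at exactly 1 place. The letters TAATCC, the core that OTX2 and CRX are known to bind, were looked for on both strands. They were present in 4 of the 7 windows (Guca1a, Gucy2e, Gucy2f and Gnb5), and 6.25% of all 32851 windows of the same length held them. The stretches around the matches of the calcium sensor and of both cyclases are shown because these 3 genes act in a single feedback step. All are upstream of the start on the minus strand of mm9, with TAATCC or its reverse complement in capitals.
Guca1a, chr17:47537567-47537652: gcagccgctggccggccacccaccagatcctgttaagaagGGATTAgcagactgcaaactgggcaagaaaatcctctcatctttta
Gucy2e, chr11:69050525-69050606: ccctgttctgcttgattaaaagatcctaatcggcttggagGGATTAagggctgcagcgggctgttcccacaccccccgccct
Gucy2f, chrX:138631493-138631578: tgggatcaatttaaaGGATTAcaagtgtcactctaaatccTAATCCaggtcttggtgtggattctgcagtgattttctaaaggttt
The Guca1a match ended 52 bases before the RefSeq start, the Gucy2e match ended 37 bases before it, and Gucy2f had a match on each strand. The match of Gnb5 ended at the last base before its RefSeq start, which lies 5107 bases from the start of the gene in the deposited tables. Of the other motifs searched on both strands, CACCTG was in 2 of the 7 windows (Gucy2f and Rgs9) and in 17.2% of all windows, and TAAGCC and TGCTGAC were in 0 of the 7 windows and in 8.2% and 3.81% of all windows. These are matches of letters and say nothing of binding.

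Hes1, the gene whose promoter drives the EGFP, had an FPKM of 16.6 in P1 pHes1_ENCs, 105 in P1 pHes1_EPCs, 3.59 in P4 pHes1_ENCs and 93.5 in P4 pHes1_EPCs. It was thus higher in the EGFP-positive library at both ages, as the labels have it. The depth inferred from the deposited intervals was 14.0 to 15.1 in units of 1e6 reads, and 11458 to 12108 genes reached an FPKM of 1. The 11 photoreceptor transcription factors listed for comparison summed to an FPKM of 1903 in P1 pHes1_ENCs, 176 in P1 pHes1_EPCs, 4925 in P4 pHes1_ENCs and 1131 in P4 pHes1_EPCs, and none was at 0 in any library. Transcripts of these factors were therefore present in the EGFP-positive libraries too. The highest of them in P1 pHes1_EPCs was Rorb, at 55.9 against 82.4 in P1 pHes1_ENCs, and at P4 it was at 79.6 against 71.5.

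The recovery genes were lower in the EGFP-positive library in most cases and higher at P4 than at P1. Differences were taken on the log2(FPKM + 1) scale as the pHes1_EPC value less the pHes1_ENC value, and a gene was counted as lower or higher when its difference passed 1, which understates the change of genes with a low FPKM. At P1, 6 of the 10 genes were lower in pHes1_EPCs, against 6.79% of all genes, and 0 were higher, against 6.1%. At P4, 8 of the 10 were lower, against 5.42%, and 0 were higher, against 9.85%. Counted over the genes that reached an FPKM of 1 in the higher library of the comparison, the shares of all genes that were lower were 11.8% at P1 and 9.56% at P4, and the shares that were higher were 10.6% and 17.4%. The median difference of the 10 genes was -1.20 at P1 and -1.69 at P4, and the median of all genes was 0 at both ages. With no pseudocount the medians of the 10 genes were -2.54 and -2.30, so the larger median gap at P4 holds for the log2(FPKM + 1) scale and not for plain ratios. In these sorted fractions, fewer cells of a type and less RNA per cell cannot be told apart.

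**Figure D1:**
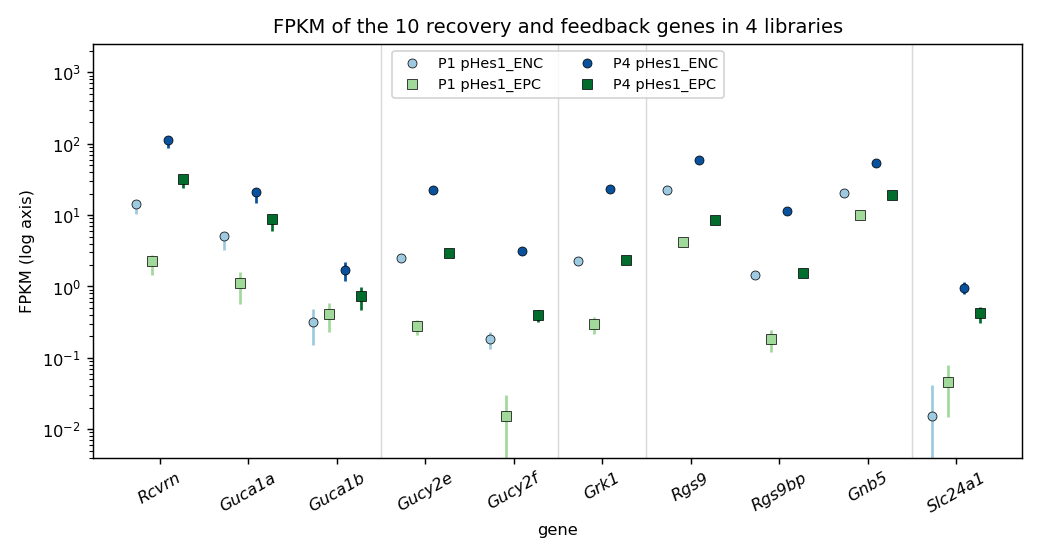
FPKM of the 10 genes (y axis, log scale) in the 4 libraries, with points for single libraries and lines for the deposited 95% interval, 2 of which run off the lower edge (Gucy2f in P1 pHes1_EPCs and Slc24a1 in P1 pHes1_ENCs). Rcvrn reached 113 in P4 pHes1_ENCs, while Slc24a1 stayed below 1 in every library, and the lines of some Rcvrn and Guca1a points lie below the point because the deposited FPKM was above its own interval.

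Recoverin and the guanylate cyclase-activating proteins are the calcium sensors of the group. Rcvrn, which holds the opsin kinase back while calcium is high, had an FPKM of 14.2 in P1 pHes1_ENCs, 2.26 in P1 pHes1_EPCs, 113 in P4 pHes1_ENCs and 31.8 in P4 pHes1_EPCs. It was higher in the EGFP-negative library at both ages, and P4 pHes1_EPCs exceeded P1 pHes1_ENCs by 2.24 times. The difference between fractions was -2.22 at P1, where pHes1_ENCs were 6.27 times higher (3.73 to 9.45 from the deposited 95% intervals), and -1.79 at P4, where they were 3.55 times higher (2.97 to 4.06). In P4 pHes1_ENCs it ranked 365th of the 21828 genes, up from rank 5146 at P1. In 3 libraries (all but P1 pHes1_EPCs) its deposited FPKM lay above its own interval, which was the case for 9.06% to 10.4% of all lines in a library (above or below), so the ratio ranges of Rcvrn are less certain than those of the longer genes.

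Guca1a and Guca1b encode GCAP1 and GCAP2, which activate the cyclases when calcium falls. Guca1a had an FPKM of 5.10 in P1 pHes1_ENCs, 1.14 in P1 pHes1_EPCs, 21.1 in P4 pHes1_ENCs and 8.84 in P4 pHes1_EPCs. Its level in the EGFP-positive library was the lower one at both ages, with differences of -1.51 at P1 and -1.17 at P4. The latter was the value closest to the limit among the genes that passed it at P4. In both P4 libraries the deposited FPKM of Guca1a lay above its own interval. The intervals were 14.8 to 19.4 in pHes1_ENCs and 5.91 to 8.69 in pHes1_EPCs, so ratio ranges that use them are less certain too. Guca1b was much lower, with an FPKM of 0.323 in P1 pHes1_ENCs, 0.416 in P1 pHes1_EPCs, 1.69 in P4 pHes1_ENCs and 0.736 in P4 pHes1_EPCs. At P1 its intervals overlapped and the difference was 0.10, from about 8.14 and 9.98 estimated reads. At P4 the intervals were apart and pHes1_ENCs were 2.30 times higher (1.19 to 4.74), but the difference of -0.63 did not pass the limit.

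The membrane guanylate cyclases restore cyclic GMP. Gucy2e, the cyclase found in both rods and cones, had an FPKM of 2.47 in P1 pHes1_ENCs, 0.277 in P1 pHes1_EPCs, 22.2 in P4 pHes1_ENCs and 2.97 in P4 pHes1_EPCs. P1 pHes1_ENCs and P4 pHes1_EPCs were thus close to each other, with the other libraries below and above them. pHes1_ENCs were 8.93 times higher than pHes1_EPCs at P1 (6.51 to 13.1, difference -1.44) and 7.48 times higher at P4 (6.54 to 8.45, difference -2.55). Gucy2f had an FPKM of 0.182 in P1 pHes1_ENCs, 0.0156 in P1 pHes1_EPCs, 3.16 in P4 pHes1_ENCs and 0.393 in P4 pHes1_EPCs. It was the EGFP-negative library at P4 alone that rose above 1. At P1 its ratio of 11.7 had a wide range, 4.41 to 61.1, with about 1.82 estimated reads behind the value in pHes1_EPCs, and the difference of -0.22 was far from the limit at such a low FPKM. At P4 the ratio was 8.04 (6.20 to 10.8) and the difference was -1.58.

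Grk1 encodes the opsin kinase that recoverin controls. Its FPKM was 2.26 in P1 pHes1_ENCs, 0.294 in P1 pHes1_EPCs, 23.0 in P4 pHes1_ENCs and 2.38 in P4 pHes1_EPCs. The P4 pHes1_EPC level was 1.05 times that of P1 pHes1_ENCs. At P1 pHes1_ENCs were 7.70 times higher (5.47 to 11.6, difference -1.33). At P4 they were 9.68 times higher (8.32 to 11.1), and the difference of -2.83 was the most negative of the 10 genes, at place 27 of 21828 counted from the most negative. The share of the pHes1_ENC level found in P4 pHes1_EPCs was 10.3% for Grk1 and 28.2% for Rcvrn. Relative to genes of like transcript length, P4 pHes1_ENCs were 7.53 times higher for Grk1 and 5.48 times for Rcvrn, which brings them closer.

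The GTPase complex held the most abundant members at P1. Rgs9, which accelerates the GTPase of transducin, had an FPKM of 22.5 in P1 pHes1_ENCs, 4.20 in P1 pHes1_EPCs, 59.5 in P4 pHes1_ENCs and 8.64 in P4 pHes1_EPCs. It was the member whose P4 pHes1_EPC level stayed furthest below the P1 pHes1_ENC level, at 0.384 times. The difference was -2.18 at P1, with a ratio of 5.36 (4.80 to 6.09), and -2.65 at P4, with a ratio of 6.89 (6.38 to 7.58). Rgs9bp, the membrane anchor of Rgs9, had an FPKM of 1.47 in P1 pHes1_ENCs, 0.181 in P1 pHes1_EPCs, 11.5 in P4 pHes1_ENCs and 1.57 in P4 pHes1_EPCs. Its order of libraries was that of Grk1. At P1 the difference of -1.06 was just past the limit and was -0.86 after quantile normalization, and at P4 it was -2.28, with a ratio of 7.31 (6.04 to 8.84).

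Gnb5, the G protein beta subunit that stabilizes Rgs9 and is known from many neurons as a partner of other RGS proteins, had an FPKM of 20.3 in P1 pHes1_ENCs, 9.96 in P1 pHes1_EPCs, 53.8 in P4 pHes1_ENCs and 19.3 in P4 pHes1_EPCs. Among the 8 members that were lower in pHes1_EPCs at P1 with intervals apart, it kept the highest share in pHes1_EPCs, 49.1% of the pHes1_ENC level. Its P1 difference of -0.96 fell just short of the limit and was -1.05 with libraries rescaled to the same total, although pHes1_ENCs were 2.04 times higher (1.70 to 2.46). At P4 the difference was -1.43 and the ratio 2.78 (2.42 to 3.22).

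Slc24a1, the sodium, calcium and potassium exchanger that clears calcium from rods, was the least abundant member in both P4 pHes1_ENCs and P1 pHes1_ENCs. Its FPKM was 0.0156 in P1 pHes1_ENCs, 0.0457 in P1 pHes1_EPCs, 0.964 in P4 pHes1_ENCs and 0.419 in P4 pHes1_EPCs. The P1 values rest on about 1.23 and 3.42 estimated reads, their intervals overlapped, and no direction can be read from them. At P4 pHes1_ENCs were 2.30 times higher (1.51 to 3.67), with a difference of -0.47.

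**Figure D2:**
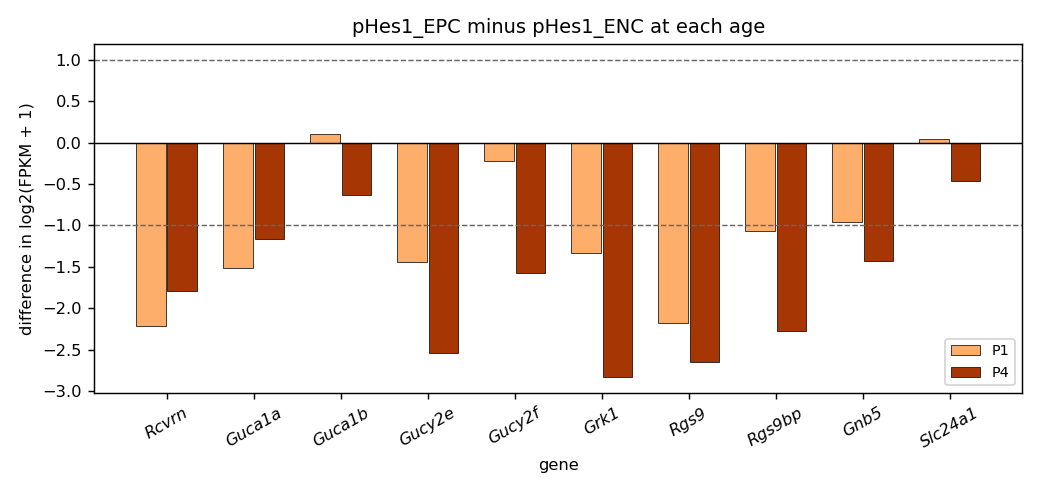
Difference in log2(FPKM + 1), pHes1_EPCs minus pHes1_ENCs (y axis), for each gene at P1 and P4, 1 library each. Dashed lines mark the limit of 1 in either direction, which 6 genes passed downward at P1 and 8 at P4, and the small upward bars at P1 are Guca1b (0.10) and Slc24a1 (0.04).

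On the log2(FPKM + 1) scale the gap between fractions moved in opposite ways with age for different members. With transcript length taken into account it did not on that scale, but it still did on plain ratios. As deposited it was smaller at P4 than at P1 for Rcvrn and Guca1a, by 0.42 and 0.34, while for the others it moved downward, most for Grk1 (by -1.50), Gucy2f (by -1.36) and Rgs9bp (by -1.22). With the median ratio of the 200 genes closest in length divided out of the FPKM, an alternative chosen after seeing the data, Rcvrn was -2.37 at P1 and -2.41 at P4, and Guca1a was -1.62 and -1.73. On plain ratios relative to those 200 genes, pHes1_ENCs were 7.15 times higher at P1 and 5.48 times at P4 for Rcvrn. These ratios were 4.99 and 3.65 for Guca1a and 8.39 and 5.29 for Gucy2e, but 5.32 and 7.26 for Rgs9 and 2.16 and 3.09 for Gnb5. Plain shares use no pseudocount and gave a different picture for some genes. By this measure P4 pHes1_EPCs held 28.2% of the pHes1_ENC level of Rcvrn, against 16.0% at P1, and 41.8% of Guca1a, against 22.3%. The share was 10.3% for Grk1, against 13.0%, and 14.5% for Rgs9, against 18.7%. It was 13.4% for Gucy2e, against 11.2%, and 13.7% for Rgs9bp, against 12.3%. For Gucy2f it was 12.4%, against 8.55%, so by this measure its gap was narrower at P4. Its P1 share rests on about 1.82 estimated reads in pHes1_EPCs. With 1 library each, these shifts were not tested.

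Between P1 and P4 all 10 genes increased in both fractions by their point values. In pHes1_ENCs 9 of the 10 were higher at P4 by more than 1 on the log2(FPKM + 1) scale, against 2.77% of all genes, and Slc24a1 was just short of it at 0.95. In pHes1_EPCs 5 of the 10 were (Rcvrn, Guca1a, Gucy2e, Grk1 and Rgs9bp), against 4.17% of all genes. None was lower by more than 1, against 5.94% of all genes in pHes1_ENCs and 2.57% in pHes1_EPCs. Over genes that reached an FPKM of 1 at either age, the shares of genes higher at P4 were 4.88% in pHes1_ENCs and 7.43% in pHes1_EPCs, and the shares lower were 10.5% and 4.57%. The median change was 1.84 in pHes1_ENCs and 1.01 in pHes1_EPCs. It was 2.98 and 3.07 with no pseudocount, which turned the order of the fractions, and with a pseudocount of 0.1 or with none 8 members passed 1 in pHes1_EPCs. The matching shares of all genes at these pseudocounts were not computed, so this count cannot be set against the shares above. In pHes1_ENCs Guca1b was just past 1 at 1.02. It was 0.98 with the length trend divided out of the FPKM, where 8 members passed. In pHes1_EPCs Rgs9bp was 0.96 with libraries rescaled to the same total, where 4 members passed. These counts have no matching share either.

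In pHes1_ENCs the increase, as a ratio of point values, was smallest for Rgs9 and Gnb5, which were the most abundant members at P1. Rgs9 was 2.64 times higher at P4 (2.49 to 2.83) and Gnb5 2.65 times (2.31 to 3.04). Rcvrn was 7.95 times higher (6.51 to 9.40), Rgs9bp 7.82 times (6.43 to 9.48), Gucy2e 8.98 times (7.82 to 10.2) and Grk1 10.2 times (8.72 to 11.7). Gucy2f was 17.4 times higher (12.5 to 25.3). Slc24a1 was 62.0 times higher by its point values, but the lower value stood for about 1.23 estimated reads. Only a lower end of 18.9 can be given for its range. In pHes1_EPCs, Rcvrn was 14.1 times higher at P4 (8.64 to 20.7) and Guca1a 7.78 times (3.76 to 15.3), while Rgs9 was 2.06 times higher (1.79 to 2.37) and Gnb5 1.94 times (1.61 to 2.35). Guca1b was the member whose intervals overlapped between ages in pHes1_EPCs, where its change was 0.29 and was 0.15 with the length trend divided out of the FPKM.

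**Figure D3:**
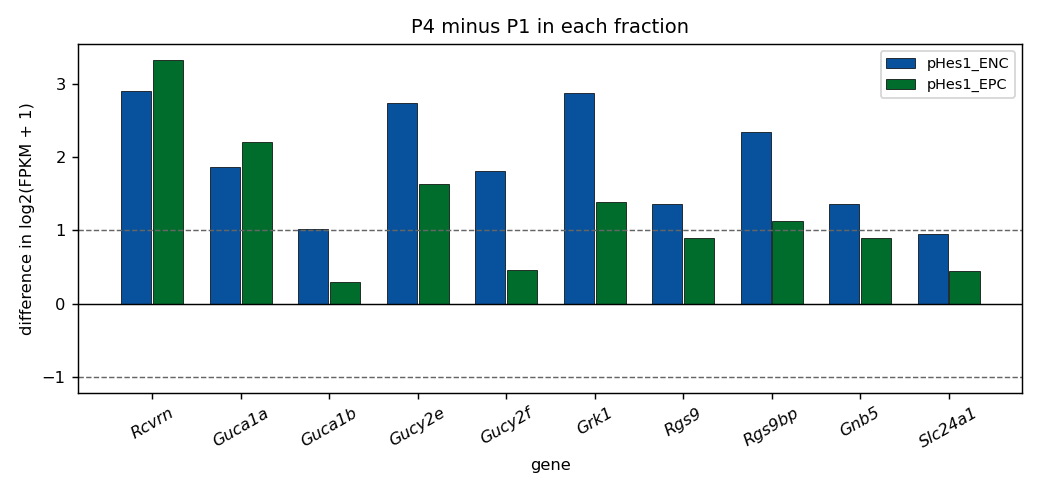
Difference in log2(FPKM + 1), P4 minus P1 (y axis), for each gene in pHes1_ENCs and pHes1_EPCs, 1 library each, with dashed lines at 1 and -1. Every bar points up, and Rcvrn (3.33 against 2.91) and Guca1a (2.20 against 1.86) are the genes whose bar is taller in pHes1_EPCs, which with the length trend divided out of the FPKM were at 2.82 against 2.72 and 1.67 against 1.69.

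Partner genes were compared within each library. FPKM is divided by transcript length, which lets levels of different genes be set side by side within a library. Ratios between the fractions still varied with transcript length, as given below, and the ratios of pairs were not corrected for this. Gnb5 and Rgs9 were at nearly equal levels in pHes1_ENCs, with a ratio of 0.902 at P1 (0.796 to 1.01) and 0.903 at P4 (0.821 to 0.973). In pHes1_EPCs Gnb5 was 2.37 times Rgs9 at P1 (1.96 to 2.85) and 2.23 times at P4 (1.93 to 2.57). The proportion thus differed between the fractions at both ages, by more than the deposited intervals. Rgs9 over Rgs9bp differed between ages instead: it was 15.3 (13.1 to 18.4) and 23.2 (15.9 to 37.3) in pHes1_ENCs and pHes1_EPCs at P1, and 5.19 (4.84 to 5.77) and 5.50 (4.59 to 6.70) at P4. At P4 the 2 fractions had nearly the same ratio for this pair, and also for Gucy2e over Gucy2f (7.02 and 7.55) and for Guca1a over Guca1b (12.5 and 12.0). At P1 Gucy2e over Gucy2f was 13.6 (9.60 to 20.1) in pHes1_ENCs and 17.8 (6.75 to 90.0) in pHes1_EPCs. Guca1a over Guca1b was then 15.8 (6.86 to 35.5) and 2.73 (0.955 to 6.88), with about 8.14 and 9.98 estimated reads for Guca1b.

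**Figure D4:**
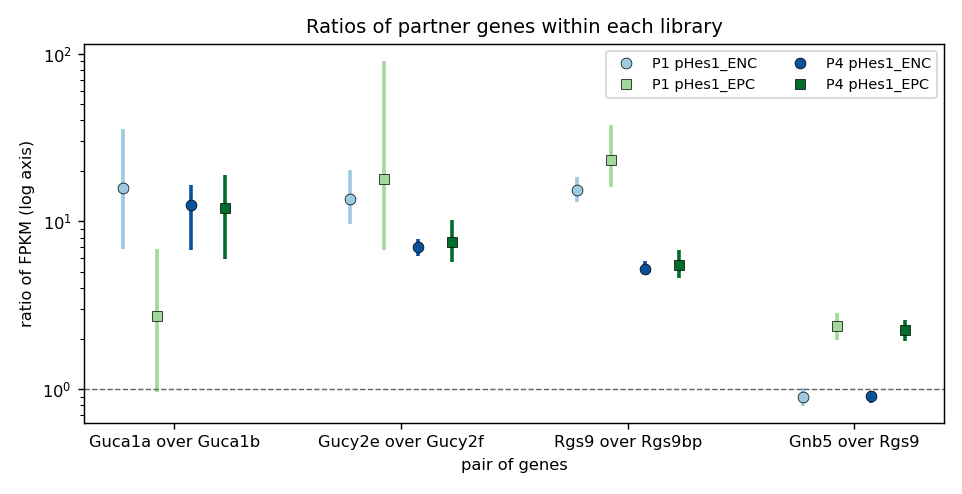
Ratio of the FPKM of 2 genes within each library (y axis, log scale), with lines for the range that the deposited 95% intervals give and a dashed line at 1. Gnb5 over Rgs9 lies above 2 in both pHes1_EPC libraries and near 0.9 in both pHes1_ENC libraries, while Rgs9 over Rgs9bp is lower at P4 than at P1 in both fractions.

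The order of the 10 levels changed with age and fraction. In P1 pHes1_ENCs Rgs9 and Gnb5 led with overlapping intervals, followed by Rcvrn and Guca1a, and Slc24a1 was last. In P4 pHes1_ENCs Rcvrn led, followed by Rgs9 and Gnb5, then Grk1 and Gucy2e with overlapping intervals. In P1 pHes1_EPCs Gnb5 led and Rgs9 came next, and the neighbours from Rcvrn down to Rgs9bp overlapped each with the next. In P4 pHes1_EPCs Rcvrn led, followed by Gnb5, and Guca1a and Rgs9 overlapped.

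A dependence on transcript length stood beside the P4 results. Over genes that reached an FPKM of 1 in both P4 libraries, the median ratio of pHes1_EPCs to pHes1_ENCs was 1.57 for transcripts of up to 1250 bases, 1.25 from there to 2500 bases, 1.05 to 5000 bases and 0.837 above 5000 bases. At P1 the corresponding medians were 1.16, 1.09, 1.02 and 0.930. Rcvrn (1040 bases) and Guca1a (871 bases) are the shortest members, and Gucy2e (8331), Gucy2f (8122) and Grk1 (7425) are the longest. Relative to the 200 genes closest in length, the excess in P4 pHes1_ENCs was 5.48 times for Rcvrn instead of 3.55, 3.65 times for Guca1a instead of 2.39, 7.53 times for Grk1 instead of 9.68, 5.29 times for Gucy2e instead of 7.48 and 7.26 times for Rgs9 instead of 6.89. The 10 genes remained lower in P4 pHes1_EPCs on this scale, from 2.21 times for Slc24a1 to 7.53 times for Grk1. The part of length in the spread among the members was not tested.

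**Figure D5:**
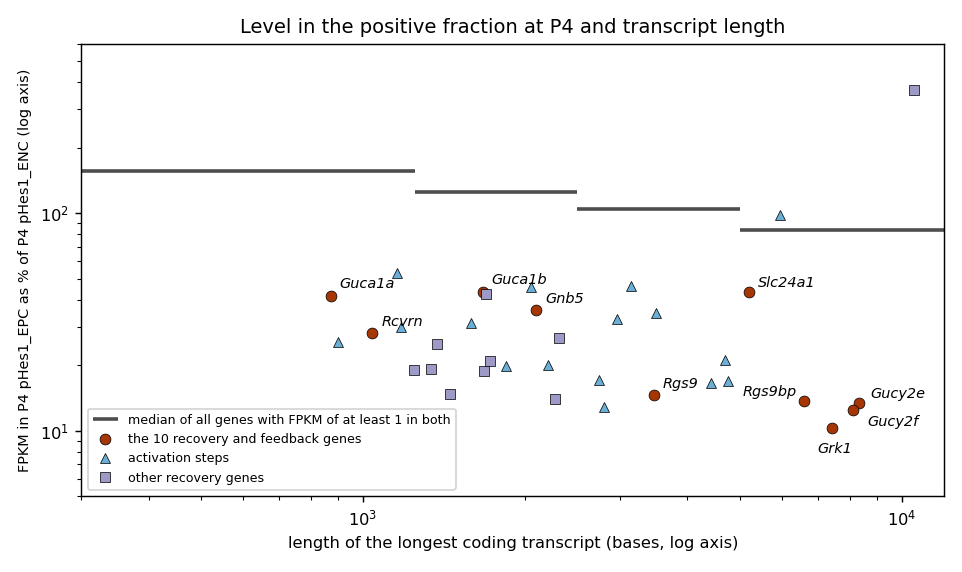
FPKM in P4 pHes1_EPCs as a percentage of that in P4 pHes1_ENCs (y axis, log scale) against the length of the longest coding transcript (x axis, log scale) for the 10 genes, 16 genes of the activation steps and 10 other recovery genes. Dark lines are medians by length class of all genes that reached an FPKM of 1 in both libraries, falling from 157% to 83.7%, and the 10 genes lie below them, between 10.3% and 43.6%.

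Most genes of the rest of the pathway were lower in pHes1_EPCs too. The counts below stand beside 6.79% of all genes that were lower at P1 and 5.42% at P4. Of 16 genes of the activation steps (transducin, phosphodiesterase and channel subunits), 11 were lower at P1 and 12 at P4, with medians of -2.01 and -1.78. Pde6b, a catalytic subunit of the rod phosphodiesterase, had an FPKM of 13.1 in P1 pHes1_ENCs, 0.759 in P1 pHes1_EPCs, 166 in P4 pHes1_ENCs and 21.3 in P4 pHes1_EPCs, and Pde6c, its counterpart in cones, had 3.05, 0.468, 1.68 and 0.546. Of 10 other genes of recovery and outer segment upkeep, 8 were lower at each age, with medians of -2.41 and -2.26. Ppef2, a phosphatase of photoreceptors, had an FPKM of 31.9, 1.49, 109 and 15.1 in the same order of libraries. Slc24a2, the exchanger of cones, had 0.826, 1.32, 0.305 and 1.13, so that the cone exchanger, unlike Slc24a1 at P4, was not lower in pHes1_EPCs. Of the 11 photoreceptor factors 10 were lower at each age, with medians of -3.58 and -2.31. Samd7 had the most negative difference at P4 (-2.69), and Rorb, a nuclear receptor, the most positive (0.15).

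With age most genes of the same lists increased in both fractions. Each list also held a gene that decreased in pHes1_ENCs, with the lowest changes at -0.60 (Pde6c), -0.48 (Slc24a2) and -0.20 (Rorb). In pHes1_ENCs 11 of the 16 activation genes and 9 of the 10 other recovery genes were higher at P4, and in pHes1_EPCs 10 and 9 were. Over all genes, 2.77% were higher at P4 in pHes1_ENCs and 4.17% in pHes1_EPCs. Of the 11 photoreceptor factors, 5 were higher in pHes1_ENCs and 8 in pHes1_EPCs. The members had 9 and 5. Their median change in pHes1_EPCs, 1.01, stood beside 1.38 for the activation genes, 2.61 for the other recovery genes and 2.78 for the factors, whereas in pHes1_ENCs the medians were 1.84, 1.61, 2.02 and 0.90. With no pseudocount the order in pHes1_EPCs was another, at 3.07 for the members, 2.86, 3.35 and 2.81. These differences between lists were not tested.

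Of 34 relatives of the members by family, 8 were lower and 2 higher in pHes1_EPCs at P1, that is 23.5% and 5.88%, and 3 were lower and 2 higher at P4. Over all genes, 6.79% were lower and 6.1% higher at P1, while at P4 5.42% were lower and 9.85% higher. Of 5 relatives of Rgs9 and its anchor, 1 was lower at P1 (Rgs7, a partner of Gnb5 in other neurons, at 2.75 against 0.847) and 0 at P4, where Rgs11 had the most positive difference (0.82). Of 10 relatives of recoverin, 4 were lower and 1 higher at P1, and at P4 0 were lower and 1 was higher. That gene was Ncald, a neuronal calcium sensor, with an FPKM of 6.04 in P1 pHes1_ENCs, 22.3 in P1 pHes1_EPCs, 3.74 in P4 pHes1_ENCs and 98.2 in P4 pHes1_EPCs, a difference of 4.39 at P4 beside -1.79 for Rcvrn. Hpca, the neuronal calcium sensor hippocalcin, was lower at P1 (difference -2.48) and had the most negative P4 difference of these relatives, -0.74. Among 5 relatives of Grk1 0 were past the limit at either age, their medians were 0.03 and 0.04, and at P4 they ran from -0.25 (Adrbk2) to 0.15 (Grk4). Among 5 relatives of the cyclases, Npr2, a natriuretic peptide receptor, was lower at P1 (17.8 against 3.72) and at P4 its difference was -0.82. Among 5 relatives of Slc24a1, Slc24a3 was lower at both ages (differences -1.26 and -1.50), and Slc24a5 was higher at P4 (6.64 against 2.56).

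Of the 4 other G beta subunits, Gnb1 and Gnb3 were also in the activation list. Both were among the 3 relatives counted as lower in pHes1_EPCs at P4. Gnb3, the subunit of cone transducin, had an FPKM of 159, 9.86, 324 and 64.6 in P1 pHes1_ENCs, P1 pHes1_EPCs, P4 pHes1_ENCs and P4 pHes1_EPCs, a wider gap than that of Gnb5 at both ages by point values (-3.88 and -2.31 against -0.96 and -1.43). Gnb4 was higher in pHes1_EPCs at P1, at 10.8 against 4.15.

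Likeness was taken as the distance between patterns of log2(FPKM + 1), centred on the gene mean, over the 4 libraries. The closest non-member genes were found for each member among the genes that reached an FPKM of 10 (8403 with the members). For Rcvrn they were BC033916 (distance 0.35), Cnga1 (0.53) and Cngb1 (0.56), of which the last 2 are channel subunits of rods. Grk1 and Gucy2e had Llgl2 and Sec14l2 as their closest non-member genes (0.41 and 0.48 for Grk1, 0.27 and 0.29 for Gucy2e). Impg1 followed for Grk1 and Cplx4, a complexin of ribbon synapses, for Gucy2e. For Rgs9 they were Podxl, Cerkl and Camkk1, for Rgs9bp Pax7, March1 and Wdr17, and for Guca1a Ccdc72, Glo1 and Guk1. Gnb5 had Ttc8 (0.09), Bbs4 (0.10) and Kifc3 (0.12), the first of which, like Bbs4, encodes a protein of the ciliary BBSome. Guca1b, Gucy2f and Slc24a1 stayed under an FPKM of 10 and were not ranked. Among the members, Guca1b and Slc24a1, both at low FPKM, were closest (0.13), followed by Gucy2e and Grk1 (0.22), and Rcvrn and Guca1b were farthest apart (3.07).

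Summed markers of other retinal cells differed between the fractions as well, but the genes of a list did not all move the same way. Müller glia markers (12 genes) summed to an FPKM of 547 in P1 pHes1_ENCs, 1686 in P1 pHes1_EPCs, 380 in P4 pHes1_ENCs and 3173 in P4 pHes1_EPCs, and progenitor markers (10 genes) to 808, 2807, 203 and 1755, with none at 0 in any library. Apoe led the former list and Ccnd1 the latter. Amacrine markers (8 genes) summed to 192, 17.5, 89.5 and 22.5, also with none at 0, and without Slc6a9, the highest of them, to 173, 15.8, 26.9 and 12.4. Ganglion cell markers (10 genes, led by Stmn2) summed to 99.3, 33.1, 12.7 and 7.70, and without Stmn2 to 36.9, 21.3, 5.44 and 3.68. The median difference between fractions in this list was -0.23 at P1 and -0.09 at P4. Bipolar markers (10 genes, led by Pcp2) summed to 16.4, 7.77, 36.1 and 17.1, and microglia markers (8 genes, led by C1qa) to 2.56, 13.2, 8.18 and 12.7. Their median differences at P1 and P4 were -0.13 and -0.42 for the bipolar list and 1.06 and 0.29 for the microglia list. Red cell markers (6 genes, led by Hba-a1) were at 137, 0.642, 334 and 5.99, and pigment epithelium markers (6 genes, led by Pmel) at 1.71, 2.73, 4.62 and 68.0. Vessel markers (6 genes) were at 63.4, 212, 14.8 and 193, nearly all of it Kdr, and the 5 others summed to 16.5, 3.67, 2.76 and 4.16, so that the rise of the sum in pHes1_EPCs at P1 is that of 1 gene. For comparison, the 10 recovery genes summed to 68.8, 18.8, 310 and 77.1. The part of these cell types in the levels of the recovery genes was not tested.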

How the data were processed

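RNA-seq tables of 4 libraries were used, 1 for each sorted fraction at each age. For each library the authors mapped 36-base single-end reads with TopHat 2.0.8b (build NCBI37/mm9, at most 50 hits) and deposited Cufflinks 2.1.1 gene FPKM with a 95% interval and a status (bcl2fastq 1.8.4 is also named in the submitters' processing notes). The random-primed library protocol does not state strand. FPKM are scaled by transcript length and library size, and reads and counts were not analysed here. Depth was inferred from the intervals, which cover counting error within a library only. Estimated reads are the FPKM times the length of the longest coding transcript times that depth. They were not taken from a gene's own interval, which can imply another number.

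Of 23021 lines, 796 lines of small RNAs were left out, and the line of highest FPKM stood for each of 234 symbols with several lines, leaving 21828 genes. With 1 library in each group there was no test. A gene was counted past 1 in log2(FPKM + 1), that is with a pseudocount of 1. Ranges of ratios divide one interval's ends by the other's. All members were named. Of each pathway or relatives list, the genes with the most positive and most negative P4 difference were named, among genes reaching an FPKM of 1. Also named were the gene with the highest mean FPKM of each marker list and the 3 non-member genes most like each member. The members and lists were chosen with earlier results of these data known. Alternatives changed the pseudocount, the filter, the scaling and the choice of lines. Both corrections for the length trend (subtracted, or divided out of the FPKM) were added after seeing the data. Python 3.11.15, numpy 2.4.6, pandas 2.3.3 and matplotlib 3.10.9 were used.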

Additional observations from a re-analysis of the deposited data

Results flagged for a closer look

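Guca1b and Slc24a1 were singled out because their differences between fractions had opposite signs at the 2 ages, on the log2(FPKM + 1) scale. Guca1b was 0.10 (pHes1_EPCs minus pHes1_ENCs) at P1 and -0.63 at P4. Slc24a1 was 0.04 at P1 and -0.47 at P4. The difference between the ages was not tested, each value comes from 1 library in each fraction, the P1 intervals of both genes overlapped, and none of the 4 values was past 1.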

How the results depend on the processing

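No paired analysis was possible because each group has 1 library and the result comes from no test. Leaving out a replicate was not possible either. Of the differences of the 10 members and the medians of the members, activation genes, other recovery genes and factors, only Guca1b with age in pHes1_EPCs changed sign under an alternative run: 0.29 became -0.10 when a median of plain log2 ratios was subtracted from the log2(FPKM + 1) difference, which mixes scales, and was 0.15 with the trend divided out of the FPKM, while on plain ratios it was 1.35 times relative to genes of like length. Under every alternative run, 6 to 8 members were lower in pHes1_EPCs at P1 and 8 to 10 at P4. With age, 8 to 10 members were higher in pHes1_ENCs and 4 to 8 in pHes1_EPCs. The shares of all genes were computed only on the log2(FPKM + 1) scale as deposited, with and without the FPKM filter. Counts under the other alternatives therefore have no matching share. Several calls between fractions turned on the setting. At P1 Rgs9bp was -0.86 after quantile normalization, and Gnb5 was -1.05 after rescaling to the same total. Gucy2f at P1 (-1.29) and Guca1b (-1.10) and Slc24a1 (-1.04) at P4 passed the limit with a pseudocount of 0.1. With a pseudocount of 0.1 the member medians were -2.23 at P1, -2.27 at P4, 2.93 with age in pHes1_ENCs and 2.33 in pHes1_EPCs, where 8 genes were past 1. List medians were then -2.71 (activation, P1), -3.18 (other recovery, P1), 2.60 and 3.25 (both, with age in pHes1_EPCs). With no pseudocount the member medians were -2.54, -2.30, 2.98 and 3.07, with 8 genes past 1 in pHes1_EPCs with age and 1 gene (Slc24a1) higher at P1, and the list medians were -3.02, -3.19, 2.86 and 3.35. Among genes reaching an FPKM of 1 in the higher library the medians were -1.44 at P1, 1.38 with age in pHes1_EPCs and 2.59 there for activation genes. Rescaling to the same total gave -1.89 at P4 and 0.78 with age in pHes1_EPCs, and quantile normalization gave -1.93 at P4. The length trend, in alternatives chosen after seeing the data, gave -1.91 when subtracted and -1.92 when divided out of the FPKM. When divided out, the narrower P4 gap of Rcvrn and Guca1a was lost on the log2(FPKM + 1) scale. It remained on plain ratios relative to genes of like length. As deposited, the median of the 10591 genes that reached an FPKM of 1 in all libraries was 0.16 higher in P4 pHes1_EPCs than in pHes1_ENCs and 0.20 higher at P4 than at P1 in pHes1_EPCs. Protein identities were planned but not run. Depth limits Guca1b, Gucy2f and Slc24a1 at P1.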
